A study of Rattus norvegicus with 6 samples.

Results

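The results concern 10 genes that are used as markers of nerve cells, Uchl1, Stmn2, Gap43, Tubb3, Map2, Nefl, Snap25, Syt1, Reln and Nxph1, as measured in astrocyte cultures from rat spinal cord. They were taken by symbol: every probe set that the platform annotation gives to 1 of these genes alone was included, 18 of the 31042 probe sets that are not controls. On this array, the Affymetrix Rat Genome 230 2.0, a probe set is a group of short probes that together read 1 transcript or part of it. Uchl1, Snap25 and Syt1 had 1 probe set each, Nxph1 had 3, and the 6 other genes had 2 each.

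The series holds 6 arrays in 2 groups of 3. NonTG arrays came from primary spinal cord astrocytes of rats without the transgene, and hSOD1G93A arrays came from the same cell type of transgenic rats that carry human superoxide dismutase 1 with a substitution linked to familial amyotrophic lateral sclerosis. Before harvest the confluent cells of both groups spent 24 hours in L15 medium with supplements, and 5 ug of total RNA was labelled per array. Each group has replicates A, B and C in the sample titles. The labels do not say what a letter marks, whether replicates came from separate animals, how old the animals were or which promoter drives the transgene.

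Neurons and astrocytes arise from the same progenitors, but most genes of the neuronal cytoskeleton and of the synapse are kept silent in glia, in part by the repressor REST. Dissociated neurons from cord tissue survive poorly in medium made for dividing astrocytes, so neuron markers in such cultures are commonly read as a test of purity. Several of the 10 genes are not exclusive to neurons: progenitors, oligodendrocyte precursors, reactive astrocytes and fibroblasts in culture can express some of them. Which cells the transcripts came from cannot be read from bulk RNA, in which fewer cells of a type and less RNA per cell cannot be told apart.

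Median signals were 129 to 136, which follows in part from the scaling of the deposited values to a common trimmed mean. The 3' to 5' ratios were 0.954 to 1.01 for Gapdh and 1.10 to 1.19 for actin. Astrocyte markers were mostly bright: 14 of the 15 on the array lay above the filter on dim probe sets. Slc1a2 (79.5 to 143) and Agt (136 to 211) passed it but stayed under 243, the 95th percentile of signals of genes of other organs. Gjb6 (1.40 to 38.4) did not pass. The summed signal of the list, on which bright genes weigh, was 152183 to 166539 in NonTG and 147214 to 166935 in hSOD1G93A. Of 15 microglia markers 3 lay above the filter, and of all named genes 73.7%. Endogenous rat Sod1 gave signals of 8855 to 9430 in NonTG and 9781 to 10860.3 in hSOD1G93A. That probe set is annotated to the rat gene and does not check the human transgene.

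Promoter sequences, the 250 bases before the annotated transcription start on the gene's own strand, were taken from RefSeq (GRCr8) for the 6 members that matched, Map2, Nxph1, Reln, Syt1, Tubb3 and Uchl1. Those of 3 genes are shown, chosen by their signals. Uchl1 was bright on all arrays, and Nxph1 had the widest range among the probe sets above the filter on dim signals. No Tubb3 probe set exceeded 243, the 95th percentile of signals of genes of other organs. Capitals mark TATAAA, the TATA box, in Uchl1 (chr14:41849418-41849667, minus strand), and CAGCACC, the left part of the site bound by REST, in Tubb3 (chr19:68365437-68365686, plus strand). Both lie on the strand opposite to the one printed, 29 bases before the start in Uchl1 and 125 bases in Tubb3. The Nxph1 window (chr4:37964075-37964324, plus strand) held none of the motifs searched.
Uchl1: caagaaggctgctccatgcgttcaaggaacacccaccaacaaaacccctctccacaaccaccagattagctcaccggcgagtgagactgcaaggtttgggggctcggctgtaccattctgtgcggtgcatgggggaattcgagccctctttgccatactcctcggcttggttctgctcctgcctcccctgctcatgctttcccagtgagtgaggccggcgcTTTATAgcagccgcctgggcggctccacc
Tubb3: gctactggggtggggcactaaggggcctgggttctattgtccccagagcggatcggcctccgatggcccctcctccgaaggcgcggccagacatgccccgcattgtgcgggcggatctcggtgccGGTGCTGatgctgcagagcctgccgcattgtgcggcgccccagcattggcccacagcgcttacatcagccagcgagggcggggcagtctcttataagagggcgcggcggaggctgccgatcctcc
Nxph1: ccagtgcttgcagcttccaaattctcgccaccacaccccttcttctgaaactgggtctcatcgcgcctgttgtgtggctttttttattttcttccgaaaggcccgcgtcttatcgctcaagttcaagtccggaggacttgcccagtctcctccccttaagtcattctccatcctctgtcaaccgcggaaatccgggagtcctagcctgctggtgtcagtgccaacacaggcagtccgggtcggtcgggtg
Both strands were searched for 6 motifs. CAGCACC was found in 1 of the 6 member promoters, against 5.43% of all 33469 promoters of this length. GGACAG, the right part of the REST site, was in 0 of 6 (18.2% of all), and both parts in this order with any 2 bases between them in 0 of 6 (0.0269%). TATAAA was in 1 (12.9%), CCAAT, the CCAAT box, in 1 (34.0%) and GGGCGG, the GC box, in 4 (30.5%), namely Reln, Syt1, Tubb3 and Uchl1. A match is a description of the letters and not evidence of binding.

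Levels are given first, as the authors' MAS5 signal, a linear intensity. Signals of different probe sets are not comparable as amounts of RNA, so each was read against 2 marks. The filter on dim probe sets was set at a signal of 66.7, the 40th percentile of mean signal on a log scale. A list of genes made in other organs (liver, pancreas, testis, lens, heart, stomach and others) served as background: 3 of its 28 genes on the array passed that filter, and the 95th percentile of its signals was 243. Its median signal was 18.5, and 13.3% of its signals were above 66.7. Signals above 243 came from Cyp2c11 and Cryga alone, with a highest of 851, so the mark rests on few genes. By its brightest probe set, a gene passed the filter in 73.7% of the 14217 named genes and in 9 of the 10 members.

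Uchl1, Stmn2, 1 probe set of Map2 and 1 of Reln exceeded both marks on all 6 arrays. Snap25 exceeded neither on any array, and Gap43, Syt1, Tubb3 and Nefl did not exceed the background mark of 243 on any array in any of their probe sets. Nxph1 passed it on the arrays of 1 letter in all 3 probe sets and on those of another in 2 of them.

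**Figure D1:**
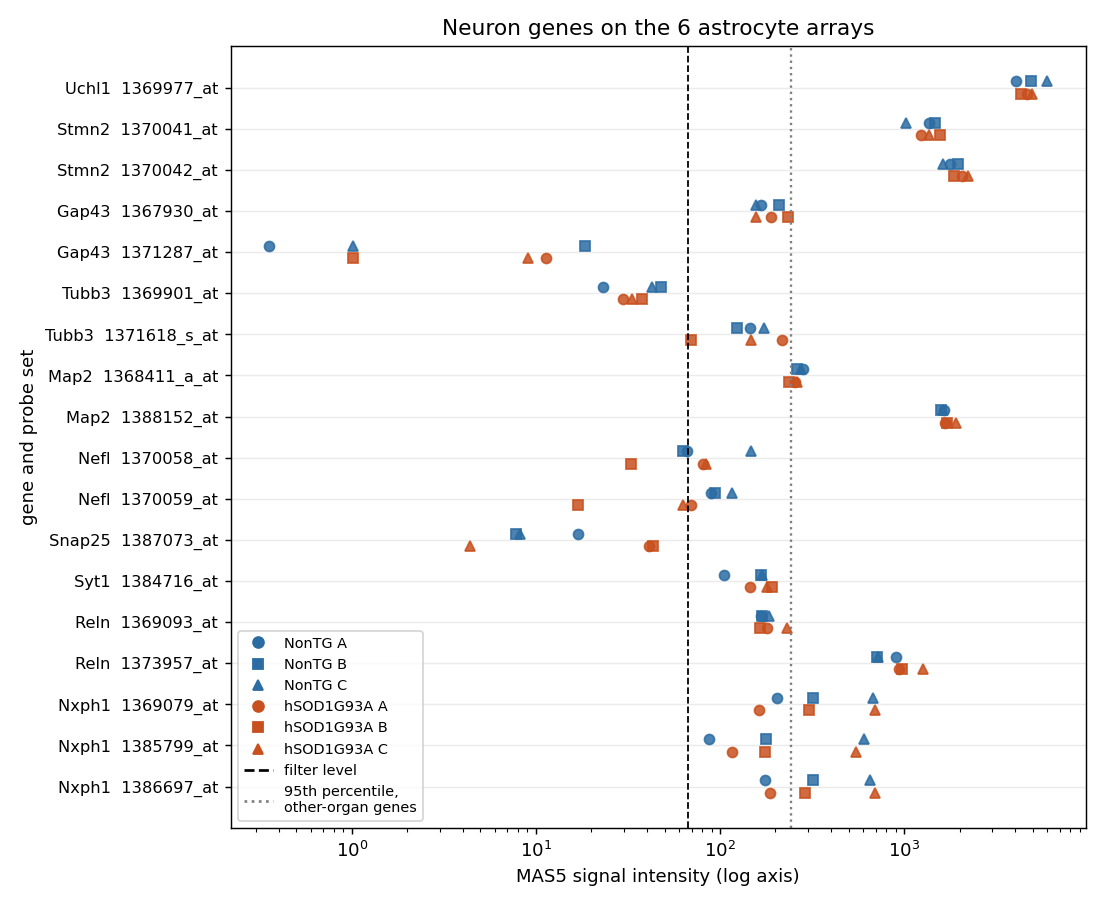
Signal of each of the 18 probe sets on the 6 arrays, on a log axis, with NonTG in blue and hSOD1G93A in orange, and circles, squares and triangles for letters A, B and C. The dashed line is the filter level of 66.7 and the dotted line the 95th percentile of 243 for genes of other organs. Uchl1 lies between 4055 and 5939.7, Snap25 between 4.37 and 43.0, and the Nxph1 points order by letter in both groups.

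Uchl1 encodes an abundant neuronal enzyme that removes ubiquitin from small adducts. Its signals were 4055, 4865 and 5939.7 on NonTG arrays A, B and C, and 4641, 4337 and 4964 on hSOD1G93A arrays A, B and C. The groups overlapped, with the highest and the lowest value both in NonTG. Stmn2, the stathmin of growing axons that regulates microtubules, was read by 2 probe sets. The first (1370041_at) gave 1365, 1467 and 1024 in NonTG and 1233, 1560.1 and 1366 in hSOD1G93A. The second (1370042_at) gave 1782, 1969 and 1626 against 2054, 1857 and 2225. NonTG C was the lowest of the 6 arrays in both Stmn2 probe sets, and the groups overlapped in both.

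Gap43, a membrane protein of axonal growth cones that glial precursors can also make, gave 168, 209 and 156 in NonTG and 189, 233 and 158 in hSOD1G93A with its tested probe set (1367930_at). The B arrays were highest in both groups. Its other probe set (1371287_at) lay between 0.357 and 18.5 and was under the filter on every array. The gene thus passed the filter by 1 of 2 probe sets, and neither exceeded the background mark of 243.

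The cytoskeletal members differed between their own probe sets. For Map2, the microtubule protein of dendrites, probe set 1388152_at gave 1654, 1576 and 1632 in NonTG and 1665, 1717 and 1918 in hSOD1G93A, while 1368411_a_at gave 282, 262 and 275 against 254, 237 and 261. Signals of each were even, within 1.22-fold and 1.19-fold over the 6 arrays. Tubb3, the tubulin chain of neurons, was under the filter on all arrays with 1369901_at, at 23.0 to 47.8. Its other probe set (1371618_s_at) gave 145, 123 and 173 in NonTG and 217, 69.8 and 148 in hSOD1G93A. An identifier ending in s_at marks a probe set that can read more than 1 transcript, so that signal may not be Tubb3 alone.

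Nefl, the light chain of the neurofilaments of axons, lay around the filter level. Probe set 1370058_at gave 66.5, 63.3 and 147 in NonTG and 81.2, 33.0 and 83.8 in hSOD1G93A, and passed the filter by its mean. Probe set 1370059_at gave 89.8, 94.0 and 117 against 69.3, 16.9 and 63.2 and did not pass. The array hSOD1G93A B was the lowest in both. In the second probe set all NonTG arrays lay above all hSOD1G93A arrays, at levels where 2 of the 3 hSOD1G93A signals were under 66.7.

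Snap25 and Syt1 belong to the machinery of synaptic vesicle release. Snap25, a plasma membrane protein of the complex that fuses vesicles at the synapse, gave 16.9, 7.82 and 8.22 in NonTG and 41.1, 43.0 and 4.37 in hSOD1G93A, all under the filter. No fold is given for it. Syt1, the calcium sensor of vesicle release, gave 105, 167 and 169 in NonTG and 146, 193 and 180.4 in hSOD1G93A. It was above the filter on all 6 arrays and under the background mark of 243.

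Reln and Nxph1 are secreted proteins. Reln, a large extracellular protein that guides neuronal positioning, gave 898, 708 and 719.5 in NonTG and 932, 972 and 1265 in hSOD1G93A with probe set 1373957_at, so that every hSOD1G93A array was above every NonTG array. Its other probe set (1369093_at) gave 166, 169.9 and 185 against 179.6, 164 and 230.4 and the groups overlapped. hSOD1G93A C was highest in both. Nxph1, or neurexophilin, a ligand of alpha-neurexins at inhibitory synapses, is described with the letters.

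Genotype was then compared on log2 signals with limma across all 18625 probe sets above the filter, 14 of which were member probe sets for 9 genes. No member passed: 0 of 14 had an adjusted p under 0.05, and limma called 0% of all probe sets. At an unadjusted p under 0.05 there was 1 member probe set, that of Reln, against 2.54% of all probe sets. With the letter as a replicate block the unadjusted count was again 1 member probe set, where the share over all was 5.85%, and 0 passed after adjustment (0%). Of the 14, 9 were higher and 5 lower in hSOD1G93A, with a median difference of 0.10 against 0.0070 over all probe sets tested, of which 52% were higher. That median was -0.034 without NonTG A and -0.070 without hSOD1G93A C, so its sign rested on single arrays.

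The Reln probe set 1373957_at had the largest difference in relation to its error, 0.44 on the log2 scale (SE 0.15, 95% interval 0.11 to 0.77), or 1.36-fold higher in hSOD1G93A, with limma's adjusted p at 0.9997. Within letters A, B and C the difference was 0.053, 0.46 and 0.81, and without hSOD1G93A C it was 0.30. With the replicate block the adjusted p was 0.834. The other Reln probe set differed by 0.13 (SE 0.19). The groups did not overlap for 3 of the 14 probe sets, against 7.51% of all: 2 were higher in hSOD1G93A (4% of all), Reln 1373957_at and Map2 1388152_at, and 1 was lower (3.51% of all), Map2 1368411_a_at. The 2 Map2 probe sets thus pointed in opposite directions, by 0.12 (SE 0.088) and -0.13 (SE 0.14). Both kept their own sign within each letter, as did Reln 1373957_at, Gap43 and Syt1, in all 5 of 14 against 25.8% of all probe sets.

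The remaining members had intervals that reached to both sides of 0. Uchl1 differed by -0.077 (95% interval -0.37 to 0.21), and the Stmn2 probe sets by 0.12 (-0.21 to 0.45) and 0.19 (-0.044 to 0.43). Gap43 differed by 0.11 (-0.36 to 0.59) and Syt1 by 0.26 (-0.29 to 0.81). For these 4 genes a 2-fold change in either direction, 1 on the log2 scale, lay outside the intervals. Gap43 and Syt1, like Nefl and Tubb3 below, stayed under 243 on every array. Their intervals thus bound measured signals and not amounts of transcript. Nefl 1370058_at differed by -0.49 (-1.56 to 0.58) and Tubb3 1371618_s_at by -0.16 (-1.01 to 0.70), and for both a 2-fold decrease lay within the interval. With the replicate block the intervals were -1.30 to 0.32 for Nefl and -0.78 to 0.47 for Tubb3, and a 2-fold decrease then lay within that of Nefl and outside that of Tubb3.

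Both Nefl probe sets and Tubb3 1371618_s_at had their lowest signal on hSOD1G93A B, whereas the dim Tubb3 1369901_at was lowest on NonTG A. Without hSOD1G93A B, Nefl 1370058_at differed by -0.048 and Tubb3 1371618_s_at by 0.30. Markers of fibroblasts and meninges summed to 69461 on that array against 83325 to 90707 on the 5 others, and those of pericytes and smooth muscle to 17851 against 23876 to 29937. Bright genes weigh on such sums. Of the fibroblast and meningeal genes by their brightest probe set, Col1a1, Col3a1, Postn, Pdgfrb and Foxc2 were lowest on that array. The rest, among them Dcn (283) and Aldh1a2 (474), were not. Whether cells with these markers have a part in the Nefl and Tubb3 values was not tested. By contrast, Stmn2 1370041_at, Gap43 1367930_at and Syt1 were highest on that same array, so the members did not fall there together.

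**Figure D2:**
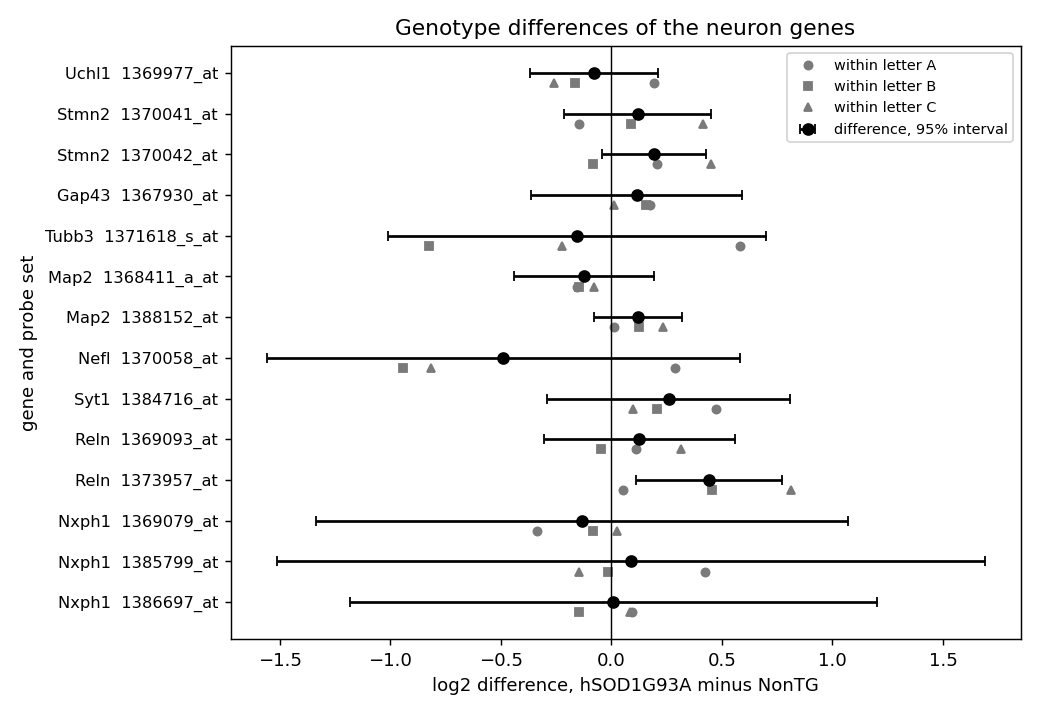
Log2 difference, hSOD1G93A minus NonTG, for the 14 member probe sets above the filter, with limma's 95% interval (black) and the difference within each replicate letter (grey). The interval leaves 0 for Reln 1373957_at alone, at 0.11 to 0.77, and is widest for the Nxph1 probe sets, whose differences within letters lie between -0.34 and 0.42.

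The replicate letters separated Nxph1 more than any other member. Probe set 1369079_at gave 205 and 162 on the A arrays (NonTG, then hSOD1G93A), 321 and 303 on the B arrays and 680.0 and 693 on the C arrays. Probe set 1385799_at gave 87.0 and 117, then 178 and 176, then 605 and 547. Probe set 1386697_at gave 176 and 188, then 319.6 and 288, then 654 and 694. In all 3 probe sets the A arrays were lowest, the B arrays intermediate and the C arrays highest, with no overlap between letters and in the same order in both groups.

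Nxph1 signal was 3.77-fold, 5.72-fold and 3.71-fold higher on the C than on the A arrays in the mean of both groups. All A array signals of Nxph1 were under the background mark of 243, so these are ratios of measured signals and not of amounts of transcript. A C to A ratio of 2 or more was found for these 3 of the 14 member probe sets, against 0.757% of all. The direction of this contrast follows the Nxph1 order above, so it is no test of that order. In NonTG alone the C to A ratios of the 3 probe sets were 3.32, 6.95 and 3.72, and in hSOD1G93A they were 4.28, 4.70 and 3.70. The 2 arrays of a letter differed by at most 0.42 on the log2 scale, whereas the letters spanned 1.89 to 2.51. The 3 probe sets read 1 gene in the same RNA and are not independent replicates of the pattern.

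In limma's test of the letter, with genotype in the model, 3 of the 14 member probe sets passed, all of them Nxph1, with adjusted p of 0.00330, 0.00291 and 0.00320. Over all probe sets 1.05% passed, and the Nxph1 probe sets ranked 19, 16 and 17 of 18625. The call depended on the variance model: without the intensity trend 0 probe sets passed in all, and the Nxph1 adjusted p was 0.342. The ranges of the 3 letters did not overlap for 5 of the 14, against 12.2% of all. Beside Nxph1 these were Gap43 1367930_at, highest in B and lowest in C, and Nefl 1370058_at, highest in C and lowest in B. The orders thus differed from that of Nxph1. A span of 1 or more on the log2 scale, in any order, was found in 3.17% of all probe sets. Among the 14 it was found for the 3 Nxph1 probe sets and for Nefl 1370058_at (1.28).

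**Figure D3:**
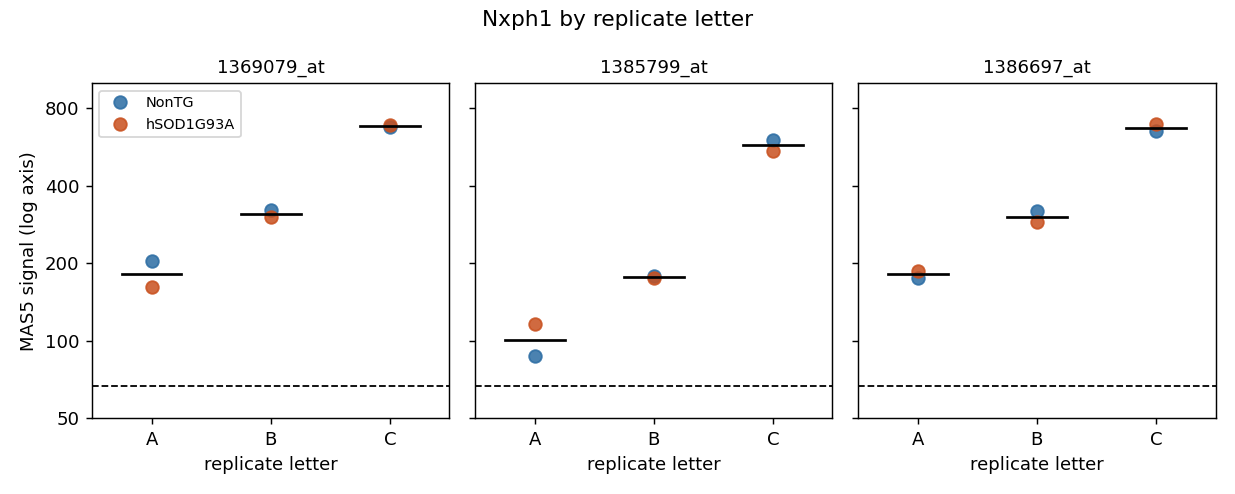
Nxph1 signal on a log axis by replicate letter for its 3 probe sets, with NonTG in blue, hSOD1G93A in orange, the mean of each letter as a bar and the filter level as a dashed line. The A arrays lie at 87.0 to 205 and the C arrays at 547 to 694, with the 2 groups close together within each letter.

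Nxph1 did not differ between the genotypes beyond its error. Without the letter in the model the differences were -0.13 (SE 0.53), 0.088 (SE 0.71) and 0.0096 (SE 0.53). With the replicate block the standard errors fell to 0.14, 0.18 and 0.13, and the 95% intervals were -0.44 to 0.18, -0.31 to 0.49 and -0.29 to 0.31. A 2-fold genotype difference, 1 on the log2 scale, lay outside all 3 intervals with the block. Without the block the intervals were -1.34 to 1.07, -1.51 to 1.69 and -1.18 to 1.20. A 2-fold difference in either direction lay within each of those. The block rests on a pairing read from these data and not from the labels.

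No summed cell type list was lowest on A, intermediate on B and highest on C in both groups, and the endothelial list had the opposite order in both. Summed signals of the other neuron genes were 14604, 14039.8 and 15108 in NonTG and 14779, 15915 and 15851 in hSOD1G93A. Those of the oligodendrocyte lineage, whose precursors can express Nxph1, were 8212, 8515 and 7776, then 9409.8, 10945 and 8551. Of its 13 genes on the array 7 passed the filter, against 73.7% of all named genes. Its markers did not share 1 order over the letters: Olig1 (1472 to 2193) and Lhfpl3 (865 to 1266) were lowest on A in both groups, and Cnp ran from A to B to C in both, at 2018, 2331 and 2466 in NonTG and 1869, 1931 and 2196 in hSOD1G93A. Mbp, the myelin protein that weighs on the sum, was lowest on C in both groups, at 592 and 790.4, and was called for the letter (limma's adjusted p = 0.0191). Pdgfra lay at 186 to 292 and Sox10, under the filter, at 6.07 to 52.2. The part of these cells in the Nxph1 signal was not tested.

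The 5 genes whose profile over the 6 arrays was closest to that of Nxph1 1385799_at were Sypl2, Slc14a2, Dusp6, Krt33b and Lars1. Likeness was measured as the root mean square difference of log2 signals after centring each profile on its mean, and was 0.538 for Sypl2 and 0.582 for Lars1. The other Nxph1 probe sets stood nearer, at 0.356 and 0.304. Sypl2, Krt33b and Lars1 were under 243 on every array, and the lowest signal of each was under 66.7. The Slc14a2 probe set ends in s_at and can read more than 1 transcript. Dusp6, a phosphatase that is induced by ERK signalling, gave 116, 124 and 271 in NonTG and 145, 149 and 325 in hSOD1G93A, while Slc14a2, a urea transporter, gave 149, 243 and 365 against 140.2, 224 and 375.

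The partners of the 2 secreted members were examined from fixed lists. All 9 genes of the reelin pathway were above the filter, against 73.7% of all named genes. Of these, 5 were higher and 4 lower in hSOD1G93A (median 0.055), with 0 called. The receptors Vldlr and Lrp8 gave 455 to 769 and 139 to 265 over the 6 arrays, and Dab1, the adaptor that relays reelin binding, gave 259 to 361 (difference 0.23, SE 0.15). Among the neurexophilin and neurexin genes, 1 of 4 on the array passed, Nrxn2 at 459 to 636, while Nxph3, Nxph4 and Nrxn3 were dim.

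Wider lists of neuron genes passed the filter in unequal shares. The share over all 14217 named genes was 73.7%. Of 34 other neuron genes 24 passed the filter (70.6%), near that share, led by Scg3 and Tagln3, with Pcsk1n next. Dcx, the microtubule protein of young neurons, lay at 2.65 to 27.9. Of 21 synaptic vesicle genes 11 passed (52.4%), of 12 genes of channels and receptors 3, and of 23 genes of transmitters and peptides 6 (26.1%). Snap23, a relative of Snap25 found in many tissues, was measured at 994 to 1372.

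Genes that set the transmitter of a neuron were mostly near background. Gad1, which makes GABA, was an exception at 2168 to 3204. Gad2, its partner enzyme, lay at 4.31 to 42.4, and Slc32a1, the vesicular carrier of GABA and glycine, at 4.17 to 37.6. Slc17a6, the glutamate carrier of spinal neurons, was at 2.60 to 41.8, Chat, the enzyme of cholinergic neurons, at 16.3 to 34.5, and Isl1, a factor of motor neurons, at 2.34 to 15.8. The peptide genes Penk, Npy and Sst passed the filter.

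**Figure D4:**
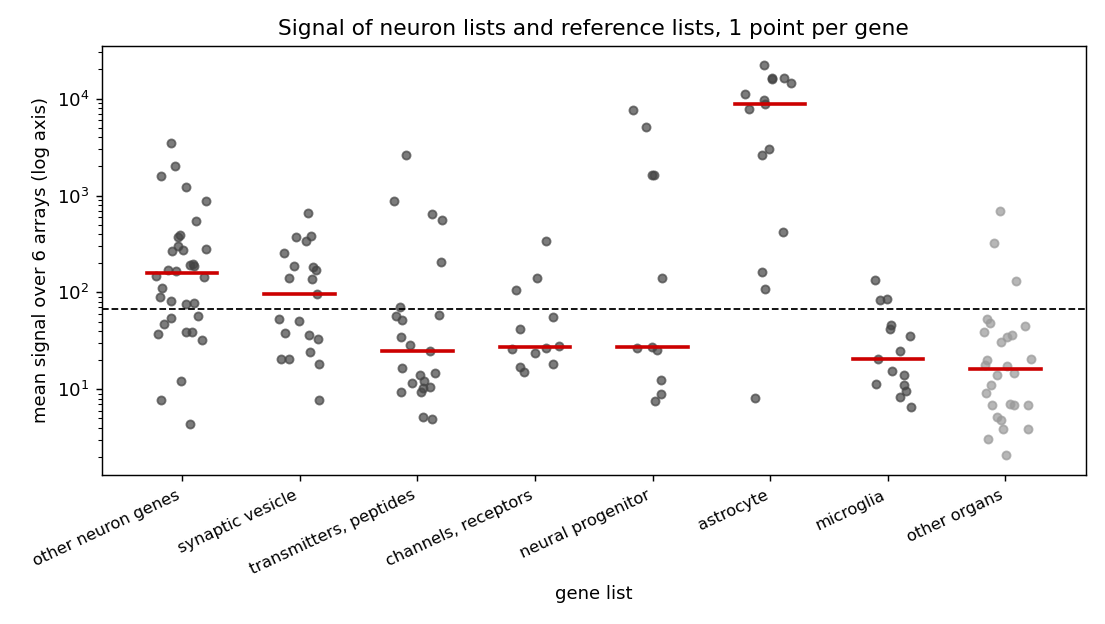
Mean signal over the 6 arrays on a log axis, 1 point per gene by its brightest probe set, for lists of neuron genes, progenitors, astrocytes, microglia and genes of other organs. Red bars are medians and the dashed line is the filter level of 66.7. Medians are 24.8 for transmitter and peptide genes, 27.3 for channels and receptors, 16.2 for other organs and 8753 for astrocyte markers.

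None of these neuron lists held a genotype call. Other neuron genes were split evenly, 12 higher and 12 lower, with a median of -0.0090, and synaptic vesicle genes 4 and 7 (median -0.056). Transmitter genes were 3 and 3 (median 0.029), and channels and receptors 3 and 0 (median 0.26). Scg3, a granule protein of secretory cells, had the smallest p, with a difference of 0.29 (SE 0.11) and groups that did not overlap. Thy1, a surface protein of neurons and fibroblasts, differed by -0.75 (SE 0.39), with its lowest value of 71.3 on hSOD1G93A B, as for Nefl and Tubb3 1371618_s_at. Other neuron genes did not move together on that array: Eno2 (781) was lowest there, and Scg3 (4223) and Nsg2 (426) were highest.

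Penk, the precursor of enkephalins, was the 1 transmitter gene called for the letter (limma's adjusted p = 0.00807), and it ran opposite to Nxph1: 1470.3, 837 and 489 in NonTG and 1281, 938 and 603 in hSOD1G93A on arrays A, B and C. Sst, the precursor of somatostatin, ran the other way, at 486, 614 and 793 in NonTG and 344, 575 and 630.1 in hSOD1G93A, and was not called.

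A fixed list held REST, which silences neuron genes in other cells, with its corepressors and regulators. Btrc, in that list, acts in the breakdown of REST and is not part of the repressor complex. The counts include it, and its difference of 0.035 is the list's median. On the array 13 of 13 passed the filter, against 73.7% of all named genes. Of these, 8 were higher and 5 lower in hSOD1G93A (median 0.035), with 0 called. Rest itself gave 111, 112 and 109.9 in NonTG and 154, 149 and 127 in hSOD1G93A. Every hSOD1G93A array was above every NonTG array, as for 4% of all probe sets tested. The difference was 0.36 (SE 0.21), with limma's adjusted p at 0.9997. These Rest signals all lay under the background mark of 243, which limits what can be said of them. Of 11 progenitor genes 5 passed the filter, among them Sox2 and Sox11, and the proneural factors Neurog1, Neurog2 and Neurod1 did not.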

How the data were processed

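Total RNA of 6 samples was hybridised to 1 array each. The deposited values are linear signal intensity per probe set. The submitters' processing notes name MAS5 and GCOS 1.4. The design text also names GC-RMA, but the values are linear and their 2% trimmed mean was 500.16 to 500.17 on every array. Of 31099 probe sets 57 controls were left out, and 20826 of the rest had 1 gene symbol, 436 several and 9780 none. All 10 member symbols matched the current RefSeq gene table.

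Values were taken to log2 with no pseudocount. Probe sets at or under the 40th percentile of mean log2 were left out. Genotype was tested with limma 3.58.1 in R 4.3.3 (lmFit and eBayes, trend on mean intensity). Tests were two-sided, and p-values were adjusted by Benjamini-Hochberg over 18625 probe sets with a threshold of 0.05. The letter was tested by a moderated F test with genotype in the model. The number of arrays limits the precision, and 3 arrays against 3 cannot give an exact permutation p under 0.1. Since no label states that replicates are separate cultures, p-values reflect the spread of these arrays alone, and this may be technical.

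Deviations from group means correlated by 0.30, 0.25 and 0.20 between same-letter arrays of the 2 groups and by -0.28 to 0.025 otherwise. Deviations within a group sum to 0, so positive same-letter values push the others down, and the contrast between them is partly built in. Each same-letter pair was above 0.1, so the letters were treated as pairing the arrays, from the data and not the labels. The main comparison has no block, and the block is an alternative. Other alternatives were quantile normalization, a pseudocount of 16, no filter, a filter at the 50th percentile, no intensity trend, array weights and leaving out each array. Leaving out arrays in the letter test was added after seeing the data.

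The members and lists were chosen with earlier results of these data known. All members are named with every probe set. In the lists, genes were named by the smallest p or the highest signal, and likeness was ranked against the member probe set with the widest range among those above the filter. The receptors and adaptor of reelin, the transmitter genes at background, Dcx, Sst, Rest, Btrc, Snap23, the oligodendrocyte lineage genes and the dim progenitor and neurexin genes were named for their role, after their values were seen. Snap23 was in the fixed list of channels and receptors but is a membrane fusion protein, so the counts of that list leave it out; with it the median difference was 0.18. A list's gene is read by its brightest probe set, and the lists were given no set test.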

Additional observations from a re-analysis of the deposited data

How the results depend on the processing

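The count of 0 genotype calls, over all probe sets and over the members, held under all 7 other settings and with each array left out in limma. The replicate block changed no call: it gave 0 member calls, with a smallest adjusted p of 0.834, and the same median of 0.10. The median member difference ran from -0.070 to 0.18 with 1 array left out and from 0.070 to 0.17 otherwise. The count of probe sets called for the letter was 110 with no filter and 0 without the intensity trend, against 195 in the main setting, and 0 member probe sets were then called without the trend. The cause was not tested. With 1 array left out it was 361 to 950, and 3 to 4 for the members, in fits where the lone array of a letter is assumed to vary like the others and 1 residual degree of freedom is left. With array weights Nxph1 1369079_at differed by 0.17 and Gap43 1367930_at by -0.0037, both with the sign turned. With 1 array left out the sign turned for 8 probe sets, over ranges of -0.68 to 0.37, -0.56 to 0.85 and -0.52 to 0.50 for Nxph1 1369079_at, 1385799_at and 1386697_at, -0.21 to 0.063 for Uchl1 and -0.036 to 0.22 for Stmn2 1370041_at. The ranges were -0.52 to 0.30 for Tubb3 1371618_s_at, -0.030 to 0.25 for Gap43 1367930_at and -0.015 to 0.23 for Reln 1369093_at. Nefl 1370058_at fell out of the test under the stricter filter and without NonTG C. Signals under about 243 lie below the 95th percentile of genes of other organs. This limits what can be said of Gap43, Syt1, Tubb3, Nefl, Snap25, Reln 1369093_at, the A arrays of Nxph1 and the B arrays of its probe set 1385799_at. The highest signal of those other-organ genes was 851. Every signal of Nxph1 and Map2 1368411_a_at lay under it, as did Reln 1373957_at on NonTG B and C.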
